A study of Mus musculus with 6 samples.

Results

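The liver bud and the yolk sac endoderm are the embryonic epithelia that make plasma proteins, and 32 of their genes were followed here among the 23366 genes of the count files. The 32 were taken from a list of symbols: 21 genes of secreted plasma proteins, 2 transcription factors and 9 genes of epithelial structure, endocytosis and lipoprotein assembly. All 32 symbols were in the files, and 25 passed the filter on low counts and were tested, made up of 16 secreted protein genes, both transcription factors and 7 epithelial or endocytic genes. The RNA came from 6 mouse embryos taken whole at E10.5, with 3 of each genotype. Knockout embryos were Trp53-/- and carried Sox2-Cre with 1 floxed and 1 null allele of H3f3a and of H3f3b (H3f3a fl/-, H3f3b fl/-). Control embryos were also Trp53-/- and carried Sox2-Cre, with 1 floxed and 1 wild-type allele of each of these genes (H3f3a fl/+, H3f3b fl/+). H3f3a and H3f3b both encode the histone variant H3.3, so the controls too had H3.3 alleles open to recombination, and neither group had p53. The strain was a mix of C57BL/6, CD1 and 129. The labels do not say whether the yolk sac or placenta was left on the embryos, nor whether embryos shared a litter, so the p-values speak only of the spread among these 6 samples, which may be technical.

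In the embryo, plasma proteins are made first by the visceral endoderm of the yolk sac and then also by hepatoblasts, the liver precursors that bud from the foregut endoderm into the septum transversum. Both epithelia use transcription factors of the HNF1, HNF4 and FOXA families and pack lipid into lipoproteins, and the visceral endoderm also takes up maternal proteins through the endocytic receptors cubilin and megalin. Sox2-Cre recombines in the epiblast, which forms the embryo proper including the liver bud, while the extraembryonic endoderm descends from the primitive endoderm, where the transgene is not active when it comes from the father. The labels do not give the parent that passed it on.

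The libraries held 24952853 to 30461689 counts in genes. H3f3a, the check of the labels, had 67.7 ± 2.91 CPM (counts scaled to library depth) in knockouts and 349 ± 15.4 CPM in controls (SD, n = 3 each), with an edgeR adjusted p of 1.5e-06. H3f3b had 455 ± 56.8 CPM in knockouts and 691 ± 31.5 CPM in controls (adjusted p = 0.0257). Reads outside genes took 18.3%, 10.6% and 18.0% of the alignments in knockouts 1 to 3, against 9.79%, 10.7% and 13.1% in controls 1 to 3. Ribosomal RNA (Rn45s) made up 2.06% to 4.24% of gene counts in knockouts and 3.98% to 8.05% in controls, with control 1 highest. All fold changes below are log2, knockout over control, from edgeR's quasi-likelihood test with p-values adjusted over 15075 genes, and a gene was called at an adjusted p under 0.05.

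Among the liver bud and yolk sac genes, the secreted plasma protein genes mostly had lower values in knockouts and the epithelial genes lay around no change, but Ttr, the thyroid hormone and retinol carrier transthyretin, was the one gene called. Ttr fell 3.22-fold. No gene of the 32 was called higher, and 1 of 25 tested was called lower, where 1.51% of all genes tested were called in either direction, 0.955% lower and 0.551% higher. The fold change was below 0 for 14 of 16 secreted protein genes, with a median of -0.43, and for 4 of 7 epithelial or endocytic genes, with a median of -0.01. The size of the secreted median and the count moved with single embryos. They were -0.23 and 11 of 16 without control 1, and -0.22 and 11 of 16 without knockout 3. Without knockout 1 they were -0.79 and 14 of 16, and without knockout 2 -0.51 and 16 of 16. Without control 2 they were -0.55 and 15 of 16, and without control 3 -0.55 and 14 of 16. Over all genes tested, 50.3% of fold changes were below 0 and the median was -0.0010. At an unadjusted p under 0.05, 6 secreted protein genes were lower (Ttr, Serpina6, Serpina1a, Fga, Apoa2 and Apom) and 1 endocytic gene, Lrp2, was higher, beside 8.53% of all genes lower and 10.7% higher. Knockouts lay wholly below controls for 4 of the 25 tested (Ttr, Serpina6, Serpina1a and Apoa2) and wholly above for 1 (Vil1), where 12.3% of all genes tested lay below and 11.8% above. The difference between the secreted and the epithelial genes is a description, without a test of its own. In whole embryos, fewer cells of a type and less RNA per cell cannot be told apart.

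**Figure D1:**
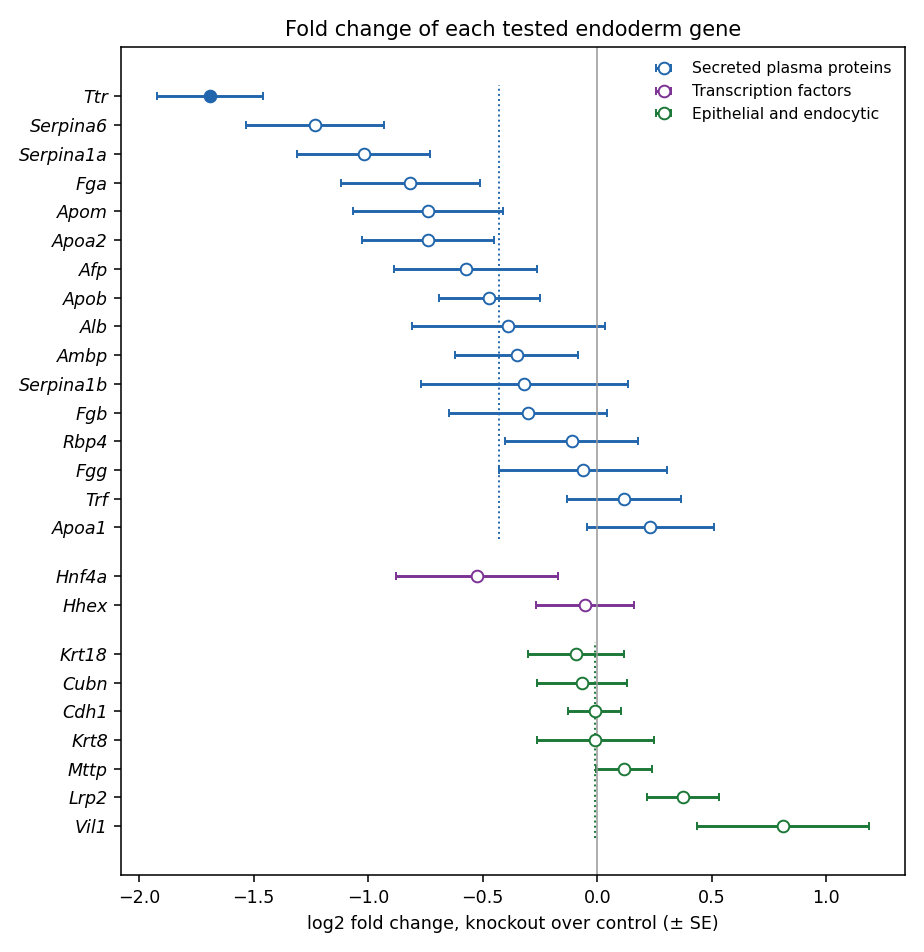
Log2 fold change, knockout over control, with its standard error on the horizontal axis for the 25 tested liver bud and yolk sac genes, in blocks of secreted plasma proteins, transcription factors, and epithelial and endocytic genes. Ttr, at -1.69, is drawn filled because its adjusted p was under 0.05, and the dotted lines mark the medians of -0.43 for the secreted and -0.01 for the epithelial and endocytic genes.

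The plasma carriers held the most abundant transcript of the 32 and the one that was called. Afp, which encodes alpha-fetoprotein, the main plasma protein of the embryo, had 142, 109 and 65.2 CPM in knockouts and 208, 137 and 126 CPM in controls. Knockout 1 lay above controls 2 and 3, so the groups overlapped, and the fold change of -0.57 ± 0.31 (SE) had an adjusted p of 0.357. Alb, for serum albumin, had 28.0, 17.8 and 9.03 CPM in knockouts and 33.5, 18.5 and 19.5 CPM in controls. Its groups overlapped as well, at -0.39 ± 0.42 (adjusted p = 0.642).

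Ttr had 4.08, 3.10 and 2.30 CPM in knockouts and 12.5, 8.26 and 9.79 CPM in controls, from 67 to 106 counts per knockout library and 243 to 364 per control library. Every knockout lay below every control, and the highest knockout was under 5 CPM. The fold change was -1.69 ± 0.23, with an edgeR adjusted p of 0.00886. Without control 1, the library highest in Ttr, it was -1.52 and the adjusted p 0.0528, so the call was lost in a fit that called 0.392% of all genes lower. Without any other library it ranged from -1.91 to -1.50 and stayed called, with adjusted p-values of 0.0036 to 0.0424. Set against Afp in the same embryo, Ttr was 2.87%, 2.84% and 3.53% of the Afp CPM in knockouts and 6.00%, 6.05% and 7.75% in controls, and these shares did not overlap. The same ratio for Alb did overlap, at 19.7%, 16.3% and 13.8% in knockouts and 16.1%, 13.6% and 15.4% in controls.

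Rbp4 and Trf, the other carriers, had fold changes near 0. Rbp4, the retinol-binding protein that travels in plasma bound to transthyretin, had 8.52, 9.27 and 5.42 CPM in knockouts and 11.7, 8.06 and 5.30 CPM in controls. Its fold change was -0.11 ± 0.29 (adjusted p = 0.861). Trf, for the iron carrier transferrin, had 42.1, 42.7 and 25.4 CPM in knockouts and 45.4, 26.0 and 30.1 CPM in controls. Trf stood at 0.12 ± 0.25 (adjusted p = 0.828), with control 1 highest and knockout 3 lowest.

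Per length of exon, Afp was the highest of the 32 in both groups, at 31.3 CPM per kilobase in knockouts and 46.6 in controls. The keratin pair Krt18 (21.9 in knockouts, 23.4 in controls) and Krt8 (21.4 in knockouts, 21.5 in controls) came next. Trf followed with 11.1 CPM per kilobase in knockouts and 10.2 in controls, and Alb with 7.80 in knockouts and 10.2 in controls. Ttr had 2.67 CPM per kilobase in knockouts and 8.58 in controls, and Serpina6 had 2.72 in knockouts and 6.37 in controls. Apob, whose transcript is among the longest here, was at 1.49 CPM per kilobase in knockouts and 2.07 in controls.

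**Figure D2:**
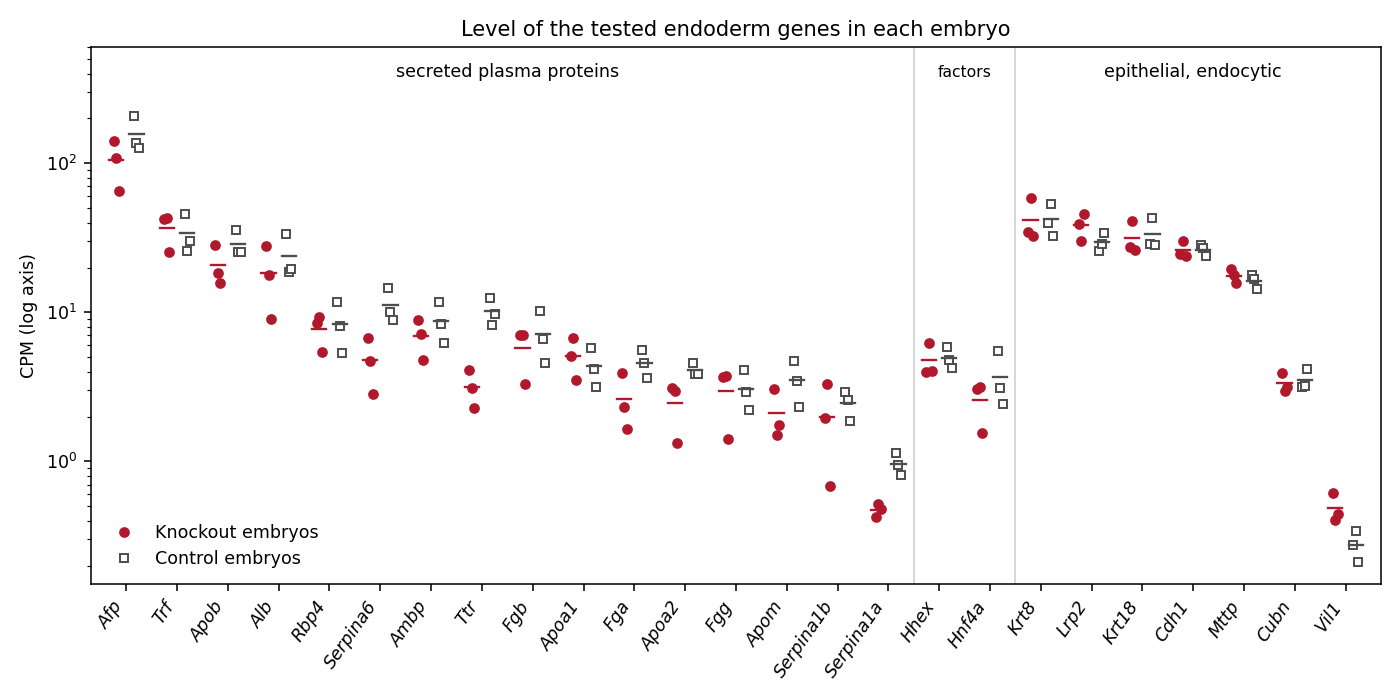
CPM on a log axis in each embryo for the 25 tested liver bud and yolk sac genes, ordered by mean level within secreted proteins, transcription factors, and epithelial and endocytic genes, with filled circles for knockouts, open squares for controls and bars for group means. The circles of Ttr lie at 2.30 to 4.08 CPM, below the squares at 8.26 to 12.5 CPM, while those of Afp, Alb and Krt8 are mixed with the squares.

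Several of these genes sit side by side: Alb next to Afp on chromosome 5, Fgg, Fga and Fgb on chromosome 3, Apoa1, Apoc3 and Apoa4 on chromosome 9, Serpina1b, Serpina1d and Serpina1a on chromosome 12, and Krt8 next to Krt18 on chromosome 15. Alb and Afp, and Krt8 and Krt18, had fold changes within 1 SE of each other, while Fga was at -0.82 ± 0.30 and Fgg at -0.06 ± 0.37, a difference that was not tested. Start-site sequence from RefSeq (GRCm38.p6) was at hand for 27 of the 32, and Ttr, Serpina6, Trf, Cdh1 and Apoc3 were not among them. The 250 bases before the start are shown for 4 secreted protein genes that differ in their fold change, Afp, Alb, Fga and Serpina1a, and for Krt8, an epithelial gene, to show the letters that tell these promoters apart. They come from chr5:90490464-90490713 (Afp, plus strand), chr5:90460620-90460869 (Alb, plus strand), chr3:83025903-83026152 (Fga, plus strand), chr12:103863620-103863869 (Serpina1a, minus strand) and chr15:102004343-102004592 (Krt8, minus strand). Each is written 5′ to 3′ on the strand of its gene, with GTTAAT or its reverse complement ATTAAC, the core of the HNF1 motif, and TATAAA, the letters of a TATA box, in capitals.
Afp: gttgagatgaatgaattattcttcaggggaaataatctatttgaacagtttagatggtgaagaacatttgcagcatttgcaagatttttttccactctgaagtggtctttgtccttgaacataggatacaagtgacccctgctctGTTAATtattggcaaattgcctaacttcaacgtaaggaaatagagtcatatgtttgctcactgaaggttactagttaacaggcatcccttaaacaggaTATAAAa
Alb: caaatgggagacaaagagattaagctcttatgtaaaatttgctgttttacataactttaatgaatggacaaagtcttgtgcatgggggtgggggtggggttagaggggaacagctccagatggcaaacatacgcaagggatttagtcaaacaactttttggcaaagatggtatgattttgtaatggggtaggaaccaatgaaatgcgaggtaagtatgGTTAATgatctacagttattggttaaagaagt
Fga: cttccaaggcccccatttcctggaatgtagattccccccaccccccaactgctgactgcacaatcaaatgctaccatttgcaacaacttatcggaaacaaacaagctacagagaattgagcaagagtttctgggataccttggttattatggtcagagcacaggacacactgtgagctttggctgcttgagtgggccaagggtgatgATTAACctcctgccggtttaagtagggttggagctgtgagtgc
Serpina1a: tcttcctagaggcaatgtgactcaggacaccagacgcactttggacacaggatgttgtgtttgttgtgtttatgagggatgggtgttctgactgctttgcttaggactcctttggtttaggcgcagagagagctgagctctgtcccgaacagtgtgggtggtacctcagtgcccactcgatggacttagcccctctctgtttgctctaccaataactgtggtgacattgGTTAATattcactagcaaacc
Krt8: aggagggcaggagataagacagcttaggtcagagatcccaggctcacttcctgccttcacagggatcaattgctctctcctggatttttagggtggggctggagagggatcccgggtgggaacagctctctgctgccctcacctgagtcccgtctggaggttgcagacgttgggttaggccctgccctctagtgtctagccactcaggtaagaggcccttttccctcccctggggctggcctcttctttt

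The HNF1 core stood in all 4 secreted promoters shown and not in that of Krt8. All 4 are among the 8 secreted genes that hold the core, so its presence in them follows from the choice of genes shown. In windows of 300 bases that also take in 50 bases after the start, GTTAAT on either strand was found for 8 of 17 secreted protein genes (Apoc2, Afp, Alb, Fga, Fgb, Serpina1a, Serpina1b and Serpina1d), for Hnf4a, and for none of 8 epithelial or endocytic genes. Over 27025 genes with such a window, 8.24% held it. A longer HNF1 pattern that extends this core, searched on both strands, was in none of the 17 secreted or 8 epithelial windows and in 0.155% of all. The FOXA motif TGTTTNC, searched on both strands, was in 14 of 17 secreted windows and in 1 of 8 epithelial ones, that of Krt18, against 22.8% of all. The HNF4 motif CAAAGTNCA, on both strands, was found for Apoa4 and Lrp2 and in 1.64% of all windows. TATAAA on the gene's strand was in 4 secreted windows (Apoa2, Apob, Afp and Rbp4) and 1 epithelial window, that of Krt8, against 9.77% of all. Counted from the start site, its first base was at -212 in Apoa2, -60 in Apob, -7 in Afp and -28 in Rbp4. In Krt8 it was at -1, so that match runs past the bases shown. Among the 32 genes, no match overlapped that of another pattern, and a match is only a match of letters. Every tested gene with the HNF1 core had a fold change below 0, as had 14 of all 16 tested secreted genes. Those with the core ran from -1.02 ± 0.29 for Serpina1a to -0.30 ± 0.35 for Fgb, on either side of the secreted median of -0.43. A link between the motif and the fold change was not tested.

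The apolipoproteins, the protein parts of lipoprotein particles, had a median fold change of -0.60 over the 4 of 7 that were tested, and none was called. Apob, the backbone of the particles that carry lipid out of yolk sac and liver, had 28.2, 18.5 and 15.7 CPM in knockouts and 35.6, 25.4 and 25.4 CPM in controls. Knockout 1 alone lay within the control range, and the fold change was -0.47 ± 0.22 (adjusted p = 0.276). Apoa2, a protein of high-density lipoprotein, had 3.12, 2.95 and 1.34 CPM in knockouts and 4.60, 3.84 and 3.89 CPM in controls. Its groups did not overlap, at -0.74 ± 0.29 (adjusted p = 0.211). Apom, a lipocalin on the same particles, averaged 2.10 ± 0.824 CPM in knockouts and 3.50 ± 1.18 CPM in controls, with a fold change of -0.74 ± 0.33 (adjusted p = 0.257). Apoa1, the main protein of high-density lipoprotein, went the other way in its value, with 5.12, 6.68 and 3.50 CPM in knockouts and 5.73, 4.15 and 3.15 CPM in controls, at 0.23 ± 0.28 (adjusted p = 0.669).

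The 3 remaining apolipoproteins were too low for the test. Apoc2, the activator of lipoprotein lipase, had 4, 1 and 0 counts in knockouts and 18, 10 and 11 counts in controls, with no overlap. Fitted without the filter on low counts, it stood at -2.79 ± 0.72 with an adjusted p of 0.0775. Apoa4, a protein of intestinal and liver lipoproteins, had no count in any knockout and 2, 2 and 1 counts in controls. A total of 0 counts allows up to 3, against 5 in controls, and the fit without the filter gave an adjusted p of 0.266. Apoc3, an inhibitor of lipoprotein lipase, had no count in any of the 6 libraries.

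The 3 fibrinogen chains form 1 clotting protein and had fold changes that differed in size. Fga, the alpha chain, had 3.89, 2.33 and 1.65 CPM in knockouts and 5.59, 4.56 and 3.64 CPM in controls (-0.82 ± 0.30, adjusted p = 0.192). Knockout 1 was above control 3, and the other knockouts lay below all controls. Fgb, the beta chain, averaged 5.80 ± 2.17 CPM in knockouts and 7.13 ± 2.85 CPM in controls (-0.30 ± 0.35, adjusted p = 0.653). Fgg, the gamma chain, averaged 2.96 ± 1.34 CPM in knockouts and 3.08 ± 0.937 CPM in controls (-0.06 ± 0.37, adjusted p = 0.943).

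Of the protease inhibitors and their relatives, the glucocorticoid carrier came closest to Ttr. Serpina6, corticosteroid-binding globulin, had 6.78, 4.73 and 2.85 CPM in knockouts and 14.7, 10.1 and 8.83 CPM in controls. The groups did not overlap, and the fold change was -1.23 ± 0.30 with an edgeR adjusted p of 0.0899. DESeq2 gave -1.23 with an adjusted p of 0.00115, where it called 1.98% of all genes lower. Without knockout 1, edgeR gave -1.56 with an adjusted p of 0.0349, where 0.906% of all genes were called lower. It was not called without any of the other libraries, at -0.99 (adjusted p = 0.352) without control 1 and -0.96 (adjusted p = 0.232) without knockout 3, nor with each library's share of reads outside genes as a further term, at -1.11 (adjusted p = 0.267). Serpina1a, a copy of the gene of the elastase inhibitor alpha1-antitrypsin, had 11, 14 and 14 counts in knockouts and 33, 28 and 23 counts in controls, without overlap (-1.02 ± 0.29, adjusted p = 0.121). Serpina1b, another copy, had 51, 89 and 20 counts in knockouts and 85, 76 and 53 counts in controls (-0.32 ± 0.45, adjusted p = 0.721). Serpina1d, a further copy, was below the filter with 3, 10 and 2 counts in knockouts and 10, 16 and 8 counts in controls. These copies are close in sequence: 60.0% of the 50-base windows of the Serpina1a transcript, 34.2% of those of Serpina1b and 48.0% of those of Serpina1d also occur in another copy, so how the counting split reads between them is uncertain. Ambp, which encodes alpha1-microglobulin and bikunin in one precursor, averaged 6.92 ± 2.05 CPM in knockouts and 8.81 ± 2.78 CPM in controls (-0.35 ± 0.27, adjusted p = 0.488). Ahsg, for fetuin-A, was below the filter with 5, 2 and 1 counts in knockouts and 13, 2 and 8 counts in controls.

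Neither transcription factor was called. Hnf4a, a nuclear receptor that drives hepatocyte and visceral endoderm genes, had 3.04, 3.14 and 1.54 CPM in knockouts and 5.52, 3.13 and 2.44 CPM in controls (-0.53 ± 0.35, adjusted p = 0.430). Knockout 3 was the lowest embryo and control 1 the highest. Hhex, a homeobox factor needed for the liver bud, had 4.01, 6.24 and 4.05 CPM in knockouts and 5.83, 4.76 and 4.24 CPM in controls (-0.05 ± 0.22, adjusted p = 0.914).

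The epithelial genes had fold changes of -0.09 to 0.81, and none was called. Cdh1, for E-cadherin, had 24.6, 29.9 and 23.7 CPM in knockouts and 28.2, 27.0 and 23.7 CPM in controls (-0.01 ± 0.12, adjusted p = 0.969). The keratins of simple epithelium had the same high embryo in each group, and their groups overlapped. Krt8 had 34.6, 58.5 and 32.4 CPM in knockouts and 40.0, 53.7 and 32.4 CPM in controls (-0.01 ± 0.26, adjusted p = 0.988). Krt18, its partner in the filament, had 27.3, 40.9 and 26.3 CPM in knockouts and 28.9, 43.3 and 28.5 CPM in controls (-0.09 ± 0.21, adjusted p = 0.837). Both were highest in the embryos numbered 2 of each group. Vil1, for the microvillus protein villin, had 16, 11 and 13 counts in knockouts and 8, 10 and 6 counts in controls, without overlap (0.81 ± 0.38, adjusted p = 0.274). Entpd2, an enzyme that breaks down extracellular nucleotides, had 0, 4 and 0 counts in knockouts and 3, 0 and 1 counts in controls.

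The tested endocytic and lipid-loading genes had fold changes of -0.07 to 0.37. Lrp2, for megalin, had 39.1, 30.2 and 45.8 CPM in knockouts and 25.8, 28.9 and 34.2 CPM in controls (0.37 ± 0.16, adjusted p = 0.239). Only knockout 2 lay within the control range, and without it the fold change was 0.52 with an adjusted p of 0.0240, in a fit that called 7.55% of all genes higher. With each library's share of reads outside genes as a further term, it was 0.049 ± 0.11 (adjusted p = 0.848). That share was 18.3%, 10.6% and 18.0% in knockouts 1 to 3 and 9.79%, 10.7% and 13.1% in controls 1 to 3. In knockouts 1 and 3 it was above every control, so a fit with this term cannot fully separate the share from genotype. The part of the share in the Lrp2 value was not tested. Cubn, for cubilin, averaged 3.35 ± 0.515 CPM in knockouts and 3.51 ± 0.574 CPM in controls (-0.07 ± 0.20, adjusted p = 0.876). Amn, for amnionless, the membrane anchor of cubilin, had 4 counts in each knockout and 0, 0 and 1 counts in controls, with no overlap. These were too few for the test, and the edgeR fit without the filter on low counts gave 3.24 ± 1.03 with an adjusted p of 0.142. Mttp, the transfer protein that loads lipid onto apolipoprotein B, averaged 17.7 ± 1.78 CPM in knockouts and 16.3 ± 1.74 CPM in controls (0.12 ± 0.12, adjusted p = 0.617). Lrp2 and Cubn are also made by the nephric duct and mesonephros, and Lrp2 by neural epithelium. A list of 8 nephric genes had a median fold change of 0.08, 0 called, and summed to 92.4 to 109 CPM in knockouts and 79.6 to 102 CPM in controls, and their part in the Lrp2 and Cubn values was not tested.

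The secreted genes also differed from embryo to embryo within each group. Summed over the 21 secreted protein genes, knockouts 1 to 3 had 297, 241 and 145 CPM, against 413, 271 and 255 CPM in controls 1 to 3. The sum in knockout 1 was above those in controls 2 and 3, so the groups overlapped. As a share of gene counts, the secreted genes took 0.0309% (95% Wilson interval 0.0303 to 0.0316), 0.0235% (0.0229 to 0.0240) and 0.0151% (0.0147 to 0.0156) in knockouts 1 to 3. The shares in controls 1 to 3 were 0.0396% (0.0389 to 0.0403), 0.0262% (0.0256 to 0.0268) and 0.0260% (0.0254 to 0.0266), with intervals that cover counting error only. Control 1 was the highest embryo for 14 of the 16 tested secreted genes, and knockout 3 was the lowest for 12 of them. The 9 epithelial and endocytic genes summed to 150, 181 and 148 CPM in knockouts and 144, 173 and 138 CPM in controls, with the embryos numbered 2 highest.

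Setting each gene against its control mean gave each embryo a median over the 16 secreted and one over the 7 epithelial genes. The secreted median was -0.09, -0.45 and -1.12 in knockouts 1 to 3 and 0.40, -0.08 and -0.34 in controls 1 to 3, on the log2 scale. The epithelial median was 0.16, 0.19 and -0.15 in knockouts and -0.07, 0.04 and -0.18 in controls. The secreted minus the epithelial median was -0.25, -0.64 and -0.97 in knockouts and 0.47, -0.12 and -0.16 in controls, so on this difference the groups did not overlap. The margin was narrow, with knockout 1 just below control 3, and no test was made of a score over these genes. In a fit that took each library's share of reads outside genes as a further term, added after seeing the data, the secreted median was -0.37 with 10 of 16 below 0, Ttr was at -1.66 and called lower with 2.06% of all genes, and the epithelial median was 0.18.

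**Figure D3:**
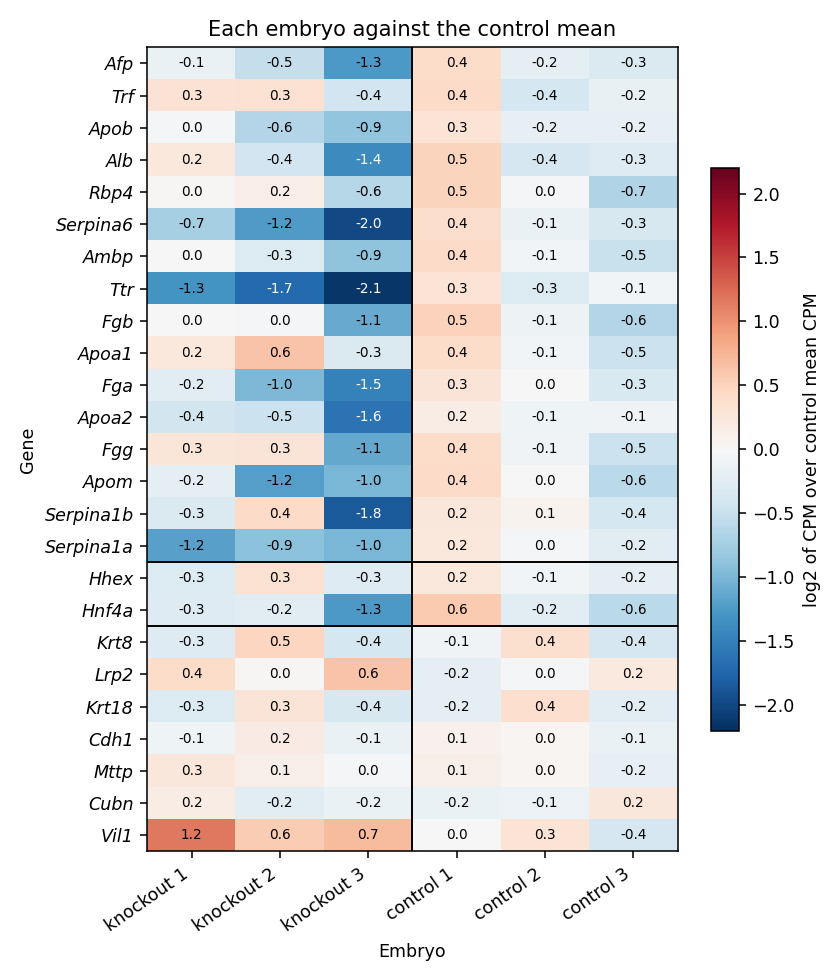
Log2 of the CPM in each embryo over the control mean for the 25 tested genes, in blue where lower and red where higher, with knockouts in the left 3 columns and controls in the right 3 and lines between secreted proteins, transcription factors, and epithelial and endocytic genes. Knockout 3 is the bluest column over the secreted genes, with a median of -1.12, control 1 is the reddest at 0.40, and the row of Ttr is blue in all knockouts.

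Within an embryo, the secreted genes were also read against each other. Relative to the embryo's own secreted median, Ttr was at -1.23, -1.26 and -1.03 in knockouts and -0.11, -0.22 and 0.28 in controls, and Serpina6 was at -0.64, -0.80 and -0.86 in knockouts and -0.01, -0.06 and 0.00 in controls. Fga was the remaining gene with all knockouts below all controls on this scale, by -0.33 in the means but with knockout 1 at -0.15 against control 1 at -0.12. Apoa1, Trf, Rbp4 and Ambp had all knockouts above all controls, by 0.77, 0.66, 0.47 and 0.20. On the same scale, 0.796% of all genes tested lay wholly below and 9.94% wholly above. The scale takes off a median that tended to be lower in knockouts and that the secreted genes themselves set. Shares over all genes are therefore no like background for the secreted genes here. Apoa1, Trf and Rbp4 lay above the secreted median in every knockout, while Afp and Alb were near it with differences of -0.06 and 0.07. These ranks are a description of the genes relative to each other.

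**Figure D4:**
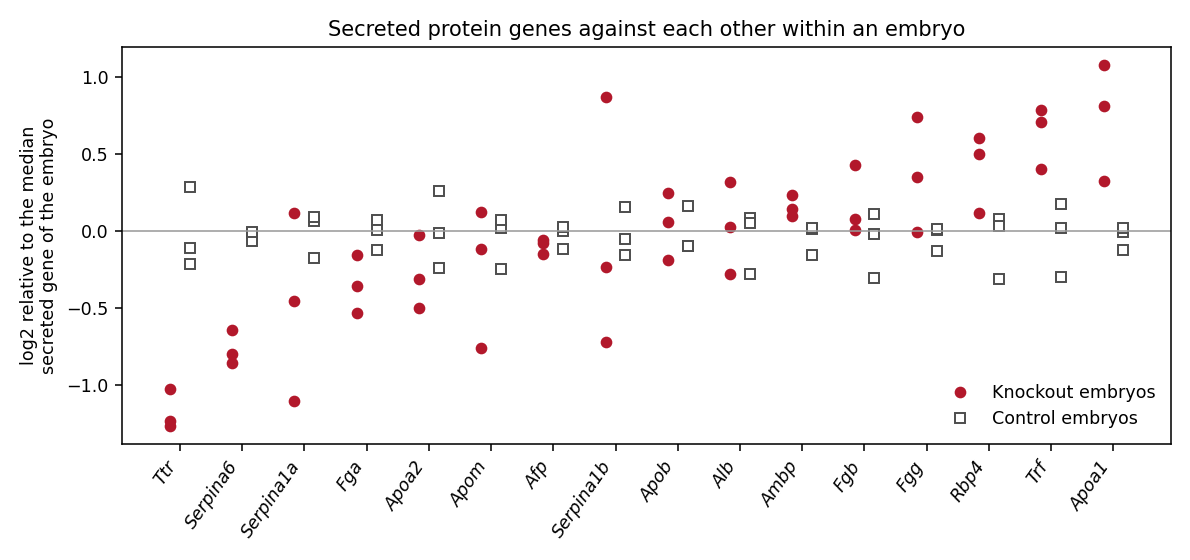
Log2 of each secreted gene's CPM over its control mean, less the median of the 16 tested secreted genes in the same embryo, with filled circles for knockouts and open squares for controls. Ttr and Serpina6 have all circles below all squares, at differences of -1.16 and -0.74, and Apoa1, Trf, Rbp4 and Ambp have all circles above.

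Further genes of the liver bud, yolk sac and their neighbours were read beside the 32. Of 38 further hepatocyte plasma protein genes 23 were tested, 19 had fold changes below 0, the median was -0.30, and 1 was called, which was lower. This was Hp, for the haemoglobin scavenger haptoglobin, with 4, 1 and 1 counts in knockouts and 19, 14 and 18 counts in controls (-2.93 ± 0.54, adjusted p = 0.0353). Serpind1, the thrombin inhibitor heparin cofactor II, was at -0.74 (adjusted p = 0.151) and F10, the clotting protease factor X, at -0.56 (adjusted p = 0.200), each with groups that did not overlap. Of 18 hepatocyte enzymes and transporters 7 were tested, none was called, and the median was 0.08. The ones with the smallest p were Aass at -0.28, Ass1 at 0.25 and Asgr1 at 0.54.

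Of 18 endoderm and liver transcription factors 16 were tested, none was called, and the median was 0.07. Sox17, which specifies endoderm and is also made by arterial endothelium, was at 0.56 ± 0.16 (adjusted p = 0.119), Gata4 at 0.40 (adjusted p = 0.173) and Tbx3 at 0.23 (adjusted p = 0.174), with knockouts above controls in all 3. Liver bud mesenchyme and septum transversum, the tissue the bud grows into, had 8 genes tested, none called and a median of 0.10, with Wt1 at 0.37, Lhx2 at -0.38 and Gata4 as above. Of 16 gut tube genes tested, none was called and the median was 0.00, with Neurog3 at -0.78, Krt19 at 0.76 and Shh at 0.24. The 24 general epithelial junction genes had none called and a median of -0.07, with Dsp, for desmoplakin, at 0.41 (adjusted p = 0.0738), Cdh3 at 0.40 and Pkp3 at -0.77.

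The yolk sac visceral endoderm list had 3 called genes, all lower, of 14 tested, and a median of -0.22. Apobec1, the enzyme that edits Apob mRNA, had 6, 5 and 6 counts in knockouts and 29, 37 and 31 counts in controls (-2.41 ± 0.32, adjusted p = 0.00775). Muc13, a membrane mucin, had 7, 6 and 9 counts in knockouts and 28, 34 and 21 counts in controls (-1.82 ± 0.34, adjusted p = 0.0363). Slc40a1, the iron exporter ferroportin, had 275, 279 and 278 counts in knockouts and 453, 400 and 439 counts in controls (-0.55 ± 0.11, adjusted p = 0.0494). Apobec1, Slc40a1 and Hp are known from macrophages or other myeloid cells as well. All 11 macrophage markers in the files had fold changes below 0, 10 were called lower, and they summed to 3.32 to 4.55 CPM in knockouts and 59.3 to 72.3 CPM in controls. C1qb and C1qc were at 0 in every knockout, and Cx3cr1 had 3, 1 and 2 counts in knockouts and 245, 238 and 248 counts in controls. The other called markers were Csf1r, Mpeg1, Mrc1, Emr1, Lyz2, Fcgr1 and C1qa. The part of macrophages in the values of Apobec1, Slc40a1, Hp and the secreted genes was not tested.

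**Figure D5:**
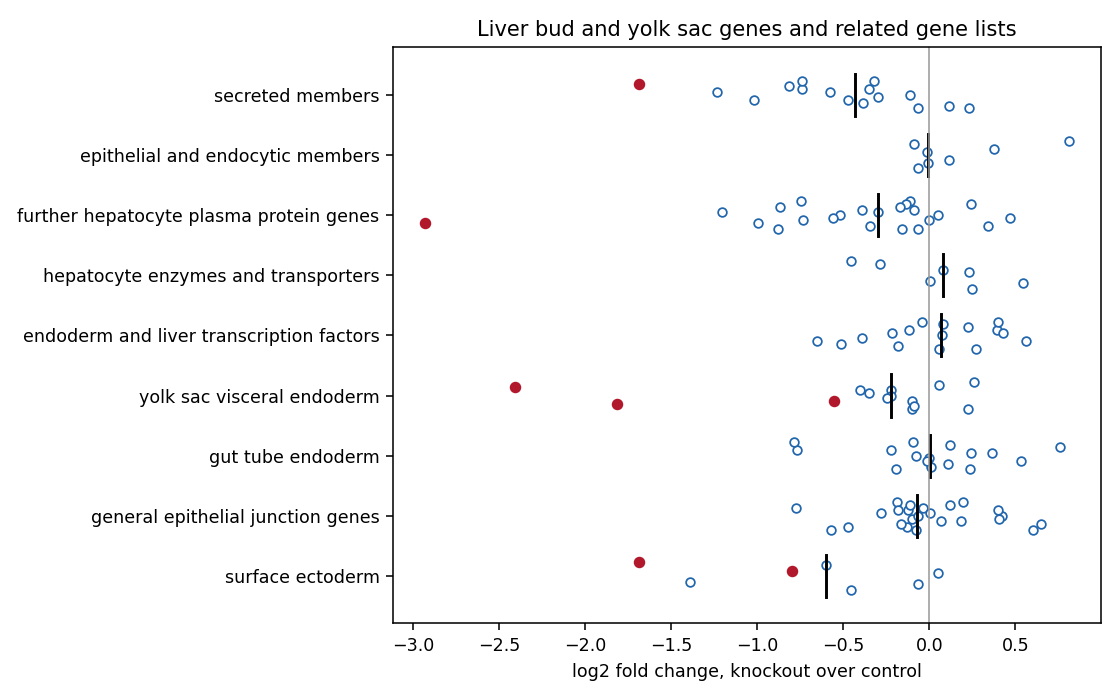
Log2 fold change, knockout over control, of every tested gene in 9 lists, with filled red points for genes called at an adjusted p under 0.05, open points for the others and black bars for the medians. The secreted genes (median -0.43), further hepatocyte plasma protein genes (-0.30), yolk sac visceral endoderm (-0.22) and surface ectoderm (-0.60) lie mostly left of 0. The epithelial genes, epithelial junction genes, hepatocyte enzymes, transcription factors and gut tube genes lie around it.

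Markers of other tissues that could touch these values were also read. Surface ectoderm, which like the endoderm makes keratins and E-cadherin, summed to 44.4 to 51.1 CPM over 8 genes in knockouts and 63.6 to 68.0 CPM in controls. Of its 7 tested genes, 6 had fold changes below 0, and the median was -0.60. Krt5 at -0.80 (adjusted p = 0.0310) and Krt15 at -1.69 (adjusted p = 0.0425) were called lower, beside Krt14 at -1.39 (adjusted p = 0.0601). The part of surface ectoderm in the values of Cdh1, Krt8 and Krt18 was not tested. The 12 trophoblast and placenta genes summed to 14.2 to 15.1 CPM in knockouts and 14.4 to 15.3 CPM in controls. Most of that sum was Tfap2c, which is also in the surface ectoderm list. Tfap2c had 10.6, 11.8 and 11.9 CPM in knockouts and 11.4, 10.1 and 11.7 CPM in controls, so the sum says little of placental tissue. Of the 12 genes, 8 were too low for the test, and 0 of 4 tested were called (Prl3b1 at -0.94, Psg23 at 0.28, Plac1 at -0.17). Tpbpa, Prl2c2 and Ctsq had no count in any of the 6 libraries. Erythroid genes, which mark blood of yolk sac origin, had a median of 0.02 with 0 of 10 called and summed to 5723 to 9333 CPM in knockouts and 7801 to 9953 CPM in controls (Slc4a1 at 0.37, Hbb-bh1 at -0.27, Hbb-y at -0.34). The nephric genes with the smallest p were Wt1, Ret at 0.18 and Emx2 at -0.13.

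Ttr is also made by the choroid plexus and its roof plate precursor. A list of 13 genes of these, chosen after the values were seen, had 9 tested, none called and a median of 0.38, and summed to 126 to 130 CPM in knockouts and 128 to 134 CPM in controls. Otx2 was at 0.38, Gdf7 at 0.99 and Enpp2 at -0.30. Of its choroid plexus genes, Kcne2 had 0, 0 and 2 counts in knockouts and 10 in each control, while Kl had 4 to 7 counts, Kcnj13 0 to 6 and Tmem72 0 to 2 per library over both groups. The part of this tissue in the Ttr value was not tested.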

How the data were processed

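Polyadenylated RNA of whole embryos was made into stranded libraries, per the labels' protocols. The authors deposited whole-number counts per gene symbol for each embryo, without normalization. Trimmomatic, TopHat2, Bowtie2 and HTSeq and the mm9 build are named in the submitters' processing notes, without versions. Neither the annotation nor the strand used in counting is given in the sources used here, so reads of overlapping or antisense genes may be shared. The deposited counts per repeat were not used here. Entries that name no gene stayed out of library sizes and tests, with reads outside genes at 9.79% to 18.3% and alignments that were not unique at 18.2% to 22.6% of each library's alignments.

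Counts were fitted with edgeR 4.0.16 in R 4.3.3 (quasi-likelihood F test with robust priors and TMM scaling, group as the only term, all 6 libraries) after filterByExpr, whose minimum was 10 for a count and 15 for a total. P-values were adjusted by Benjamini-Hochberg over the 15075 genes kept and called under 0.05. A standard error is the size of the log2 fold change divided by the root of its F value, and CPM uses TMM-scaled library sizes. The biological coefficient of variation was 12.2%. The closest pair of libraries, control 3 and knockout 1, differed by a chi-square of 12.4 per degree of freedom, so none is a copy of another. The closest pairs within a group were knockouts 1 and 3 at 16.7 and controls 2 and 3 at 21.3. Groups and replicate numbers come from the titles, and the numbers were not taken as pairs. The fit was tested on simulated data. Alternatives were other scalings, DESeq2 1.42.0, limma-voom 3.58.1, other filters, no robust priors, ribosomal RNA genes left out, a block, each library left out and, added after seeing the data, a covariate.

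The genes followed and the related lists were chosen with earlier results of these data known. Every one of the 32 genes is given a value. Called genes and the 8 of highest mean CPM are given per embryo, and each related list by its called genes and its 3 of smallest p. Other values per embryo were given after they were seen. Exon lengths come from GENCODE M21 (GRCm38), matched by symbol for all 32, while the files use mm9.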

Additional observations from a re-analysis of the deposited data

How the results depend on the processing

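Of 423 values of the tested genes under 17 alternatives, 381 kept their direction and their side of the threshold and 34 changed sign, in 11 genes, of which none was called either way. Ttr was called in every alternative but the one without control 1, where its fold change was -1.52, and over the libraries left out it was -1.91 to -1.50. The number of the 32 genes called lower was 2 with DESeq2 (Ttr and Serpina6), where 1.98% of all genes were lower. At an adjusted p under 0.1 it was 2 as well (Ttr and Serpina6), where 1.7% of all genes were lower. With the replicate block it was 5 (Afp, Apob, Fga, Serpina6 and Ttr), where 1.7% of all genes were lower. With a library left out it was 0 to 2, and the number called higher 0 to 1, which was Lrp2 without knockout 2. Over all genes, calls were 144 lower and 83 higher, against 328 and 441 with DESeq2, 256 and 333 with the replicate block, and 311 and 437 with the covariate. No filter gave 144 higher and the stricter filter 86 lower, and with a library left out they were 53 to 504 lower and 7 to 1159 higher, the most without knockout 2. The secreted median was -0.79 to -0.22 with a library left out. The epithelial median was 0.011 to 0.15, and 0.18 with the covariate. In the main fit, 0.955% of all genes tested were called lower and 0.551% higher. Of 144 genes tested in the related lists, 16 were called lower and 0 higher, and 10 of the 16 were macrophage markers. The number called higher was 1 with library totals, 2 with the replicate block and 0 to 5 with a library left out, and the number lower 10 to 20. With a library left out, 0.346% to 3.28% of all genes were called lower and 0.0458% to 7.55% higher.

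The sign changed for 11 genes, whose fold changes lay between -0.32 and 0.23. With library totals Cdh1 was at 0.044 and Krt8 at 0.041. With the covariate, Rbp4 was at 0.29, Fgb at 0.11, Fgg at 0.34, Serpina1b at 0.33, Hhex at 0.32, Cdh1 at 0.18, Krt8 at 0.43 and Krt18 at 0.23. With a library left out, Rbp4 was at -0.35 to 0.21, Fgb at -0.54 to 0.047, Fgg at -0.29 to 0.28, Serpina1b at -0.91 to 0.10, Hhex at -0.30 to 0.081, Trf at -0.044 to 0.39, Apoa1 at -0.017 to 0.48, Cdh1 at -0.12 to 0.055, Krt8 at -0.33 to 0.21, Krt18 at -0.33 to 0.13 and Cubn at -0.19 to 0.078. The cause was not tested. Same-numbered embryos correlated in their deviations from the group means at -0.09, 0.17 and 0.26, and 1 of 3 knockouts correlated best with the control of its own number, so under the block embryos share only a number. The alternative that leaves very abundant listed genes out of the scaling was not run because none passed its level. With 3 embryos a group and under 15 counts in most libraries, the 7 genes not tested are limited by depth.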
